A study of Mus musculus with 9 samples.

Results

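Neurospheres grown from the adult mouse auditory nerve were compared with the nerve tissue itself, on 6 of the 9 arrays of the series, 3 per group. All 18193 genes that the array represents by a probe set naming only that gene were tested, and 35 gene lists covering 1297 memberships were used to describe functions beyond the genes that moved most. Every animal was a CBA/CaJ mouse aged 8 to 12 weeks, of either sex and with no genetic alteration named. The tissue samples were auditory nerves taken directly from the temporal bone and not treated. The neurospheres began as trypsinised nerve cells that had grown to confluency in 5 to 7 days in medium with 10% fetal bovine serum, and had then been kept for 12 days in serum-free proliferation medium with EGF at 20 ng/ml, FGF at 10 ng/ml and heparin at 2 µg/ml. The remaining 3 arrays held cultured cells taken before that second medium, and they serve here to divide the change into its steps. Each sample was 100 ng of total RNA on a mouse genome array, and all values are log2 signals.

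Neither group was a pure cell population, since no cells were sorted, and fewer cells of a type and less RNA per cell cannot be told apart in such samples. Separate animals or cultures are not stated for the 3 samples within a group, so that p-values here reflect sample-to-sample spread alone, and part of it or all of it may be technical. The table carries no detection call, so a fold change against a low signal may understate the difference.

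The auditory nerve carries the axons of spiral ganglion neurons, wrapped by Schwann cells in the periphery and by oligodendrocytes nearer the brainstem, and its bodies and fibres lie among fibroblasts, vessels, resident macrophages and bone. Neurospheres are floating clusters in which growth factors keep dividing cells alive and mature neurons are mostly lost at dissociation. The usual markers placed both groups only in part. Of all genes 21.7% rose and 21.0% fell, and the counts of markers are to be read against these shares. All 5 measured glial markers and 7 of 8 neuronal markers fell, and Cdh19, a marker of Schwann cell precursors, fell least among the glial ones with a log2 fold change of -1.13. Of 7 neurosphere markers, Nes, Vim, Cd44 and Prom1 rose by 2.39, 2.04, 1.26 and 0.95, the last with 1 neurosphere array within the tissue range, whereas Sox2, Fabp7 and Msi1, which mark neural stem cells, fell with log2 fold changes of -3.20, -3.42 and -2.14. The summed signal of these 7 was 12.8 to 12.9 (log2) in tissue and 13.84 to 13.91 in neurospheres. In cultured cells it was 13.85 to 13.97, so its rise was not particular to neurospheres. Glial markers also had like sums in the cultures, 9.66 to 10.31 in neurospheres and 9.9 to 10.05 in cultured cells. The fibroblast markers had higher sums in both cultures than in tissue. Of 7 measured, 6 rose and none fell in neurospheres. Their summed signal was 14.4 to 14.6 (log2) in tissue, 15.1 to 15.3 in cultured cells and 15.7 to 15.8 in neurospheres.

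Markers of several other cell types of the dissected nerve had lower signals in neurospheres. Of 6 hair cell markers 4 fell, among them Pvalb, which is also a gene of auditory neurons. Of 6 endothelial markers 4 fell and 1 rose, and of 6 neutrophil markers 4 fell. All 6 macrophage markers and all 6 epithelial markers fell. Their summed signals were 11.5 to 11.8 in tissue and 8.14 to 8.5 in neurospheres for macrophages, and 12.2 to 12.3 and 7.90 to 8.53 for epithelium. Osteoclast markers had a summed signal of 7.15 to 7.44 in tissue and 10.2 to 11.1 in neurospheres, but of the 3 that rose Mmp9, a gelatinase that many cells make, rose by 5.25 against 1.33 for Acp5 and 1.15 for Atp6v0d2, and Calcr, Ocstamp and Dcstamp did not pass. Osteoblast and osteocyte markers had a summed signal of 12.5 to 12.9 in tissue, 12.0 to 12.6 in cultured cells and 13.82 to 13.95 in neurospheres. Of the 5 measured 1 rose and 2 fell. The part of these cell types in the results below was not tested.

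A measure of RNA integrity also separated the arrays of the groups. The array carries probe sets at the 3' and 5' ends of control transcripts, and because labelling starts from the 3' end a larger 3' minus 5' difference goes with shorter RNA or shorter copies of it. For beta-actin the difference was 3.07, 2.67 and 2.38 on tissue arrays 1 to 3 and 0.54, 0.74 and 0.83 on neurosphere arrays 1 to 3. For Gapdh it was 2.49, 1.84 and 1.61 against 0.30, 0.39 and 0.54. All tissue arrays lay above all neurosphere arrays, and tissue array 1 was the highest for both transcripts. Each test of the difference gave p = 0.1 (exact permutation test, 2-sided), the smallest value that 3 against 3 arrays allow. Pyruvate carboxylase differed in the same direction (3.60 in tissue and 1.88 in neurospheres, p = 0.1 by the same exact test), although its 5' probe set was at 5.55 and 5.70 in the 2 groups, so that the difference lay in its 3' signal.

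The end of the transcript that was probed changed the reading of the same gene. The 3' set of actin was higher in neurospheres by 0.56 and the 5' set by 2.56, and for Gapdh the 3' set was lower, with a log2 difference of -0.50, while the 5' set was higher by 1.08. Bacterial poly-A transcripts are added to RNA before labelling, and their 3' minus 5' differences went both ways. Neurospheres minus tissue came to 0.11 for dap, -0.34 for lys, -0.22 for phe and 0.35 for thr (exact permutation p of 0.4, 0.1, 0.4 and 0.1). Among the 9010 genes with more than 1 probe set, the other 16752 probe sets had a log2 fold change higher than the brightest one of the same gene by a median of 0.21, and 60.5% of them were higher. In 547 of these genes, 6.07%, probe sets passed the test in opposite directions. Taken singly, 24.3% of all 34945 single-gene probe sets rose and 18.8% fell.

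**Figure D1:**
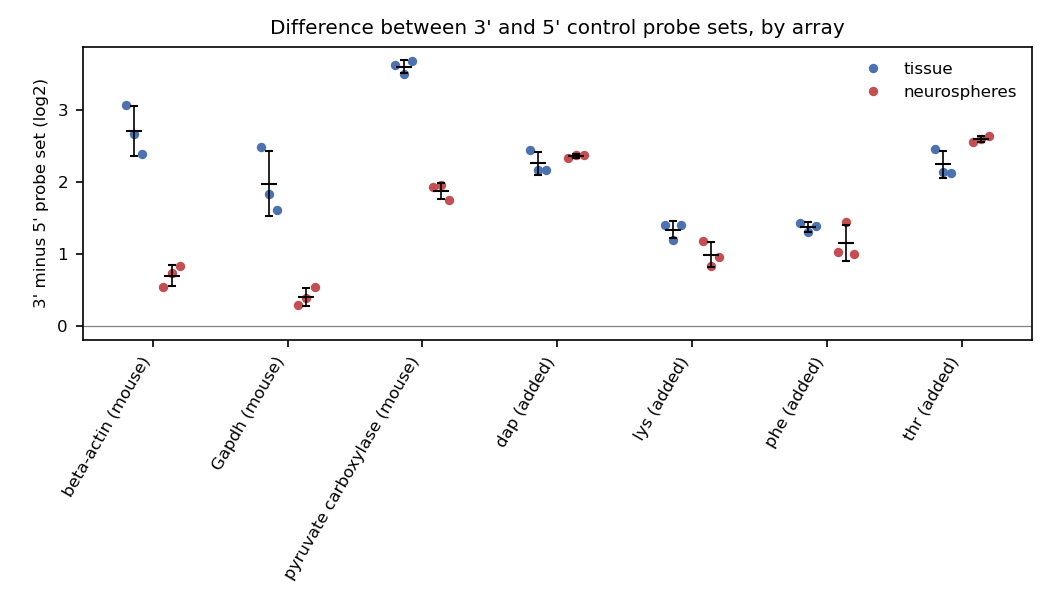
The y axis is the log2 signal of the 3' control probe set minus that of the 5' set, for 3 mouse transcripts and 4 added bacterial transcripts on the x axis, with 1 point per array and bars for the mean ± SD of 3 arrays. For beta-actin and Gapdh the tissue points lie at 1.61 or above and the neurosphere points at 0.83 or below, while tissue and neurosphere points of the added dap transcript lie close together.

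The added transcripts also gave weaker signals in the neurosphere samples, with log2 differences from -1.02 (dap) to -0.32 (lys) for their 3' sets. Centring the arrays on them moved the median log2 fold change of all genes from 0.05 to 0.73, and 9663 genes rose and 1932 fell in place of 3945 and 3817. The amounts added are not given in the sources used here. Every change below is therefore relative to the common scale of the deposited values, on which the median of all genes was 0.05. Where a list's median changed sign with centring on the added transcripts, that value stands beside it.

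Across all genes, 21.7% rose and 21.0% fell by limma, or 42.7% together, counting genes that changed over 1.5-fold with a Benjamini-Hochberg adjusted p below 0.05. The arrays of the groups did not overlap in 68.1% of genes. Counts of list members below are to be read against these shares. Falls were larger than rises, with 1278 genes falling and 734 rising more than 4-fold. The plot of 35 lists shows the share of members in each direction.

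**Figure D2:**
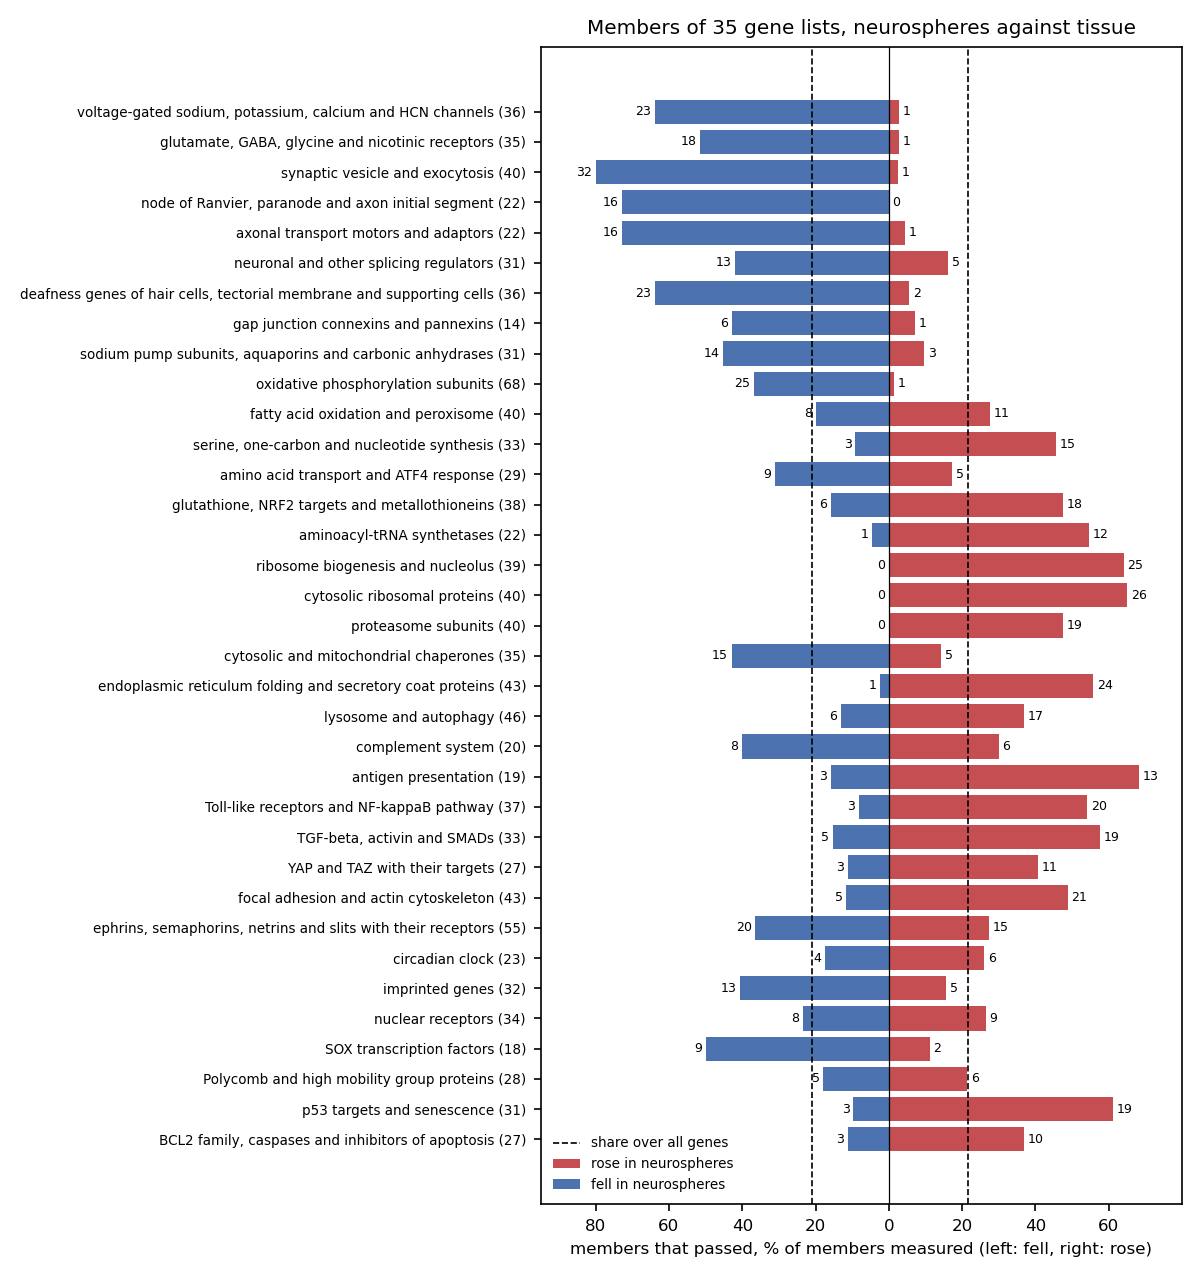
Bars give the percentage of measured members of each gene list (number in brackets) that rose to the right and fell to the left in neurospheres against tissue, with the count at the end of each bar. Dashed lines mark the shares over all genes, 21.7% rising and 21.0% falling. Lists of neuronal function extend mainly to the left and lists of protein production mainly to the right.

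Genes for electrical signalling fell together. Of 36 measured voltage-gated channel genes, 23 fell and 1 rose, with a median log2 fold change of -1.97, or -1.05 with the mean of each gene's probe sets. Kcnc1, whose potassium channel allows fast repetitive firing, was at 11.76, 11.41 and 11.50 on the tissue arrays and at 3.91, 4.23 and 4.16 on the neurosphere arrays (log2 fold change -7.46, SE 0.12, adjusted p = 1.09e-09). Kcna1 and Kcna2, the potassium channels beside the node of Ranvier, fell with log2 fold changes of -6.53 and -7.14, and Scn8a, the main sodium channel of mature nodes, and its partner Scn4b with -6.56 and -6.37. For each of these 5 genes the lowest tissue array stood far above the highest neurosphere array. Cacna2d1, an auxiliary calcium channel subunit also made by cells that do not fire, was the exception, at 8.97, 9.07 and 9.20 on the tissue arrays and at 10.43, 10.78 and 10.70 on the neurosphere arrays, a rise of 1.55.

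The adhesion complexes that hold the node together followed. Of 22 node, paranode and initial segment genes, 16 fell and none rose, with a median of -1.75. Cntnap2, which anchors the potassium channels beside the paranode, fell with a log2 fold change of -5.56, Lgi1, a secreted partner of those complexes, with -4.40, Sptbn4, the spectrin under the nodal membrane, with -4.35, and Mag, which holds myelin to the axon, with -4.56. Against cultured cells, 5 of the 22 were higher and 2 lower in neurospheres, where 9.0% and 8.91% of all genes were.

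Synaptic vesicle genes had the largest share of falls among the 35 lists. Of 40 measured, 32 fell and 1 rose, and the median was -3.78. Slc17a6, the vesicular transporter that loads glutamate, was at 11.24, 11.38 and 11.25 on the tissue arrays and at 3.84, 4.65 and 4.98 on the neurosphere arrays (log2 fold change -6.80, SE 0.25, adjusted p = 4.75e-08). Sh3gl2 and Snap91, which act in vesicle recycling, fell with log2 fold changes of -7.05 and -6.68, as did Cplx1, which clamps the fusion machinery, with -6.66. The 1 member that rose was Stx1a, a membrane syntaxin, by 0.63.

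Receptors moved less. Of 35 receptors for glutamate, GABA, glycine and acetylcholine, 18 fell and 1 rose, with a median of -0.60 that became 0.09 with centring on the added transcripts. Glycine receptor subunits led, Glra3 at 10.67, 10.73 and 10.67 on the tissue arrays and at 2.84, 2.79 and 2.76 on the neurosphere arrays (log2 fold change -7.89, SE 0.08, adjusted p = 2.44e-10) and Glrb with a log2 fold change of -5.11. The AMPA receptor subunit Gria4 fell with -4.57 and the metabotropic receptors Grm7 and Grm3 with -3.83 and -3.67. Grm7 was nevertheless higher in neurospheres than in cultured cells, by 2.09. Gabrb2, a GABA receptor subunit, rose by 1.5 with a wide spread, at 4.74, 5.80 and 5.25 on the tissue arrays and at 6.16, 7.25 and 6.87 on the neurosphere arrays, and it was lower in neurospheres than in cultured cells (-1.36).

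Axonal transport showed how far the probe set mattered. Of 22 motors and adaptors 16 fell and 1 rose, with a median of -1.71, and with the mean of each gene's probe sets 12 fell and the median was -0.86. Dync1i1, the neuronal dynein intermediate chain, fell with a log2 fold change of -6.60, and the neuronal kinesins Kif5a and Kif5c with -6.37 and -4.98, while Kif3b, which carries cargo in many cell types, rose by 0.80. Probe sets of 5 members passed in opposite directions, more than in any other of the 35 lists. Klc1, a kinesin light chain, fell with -4.10 at its brightest probe set, but the other 2 probe sets of the gene passed upward.

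Of 31 measured regulators of splicing, 13 fell and 5 rose, with a median of -0.41 (0.28 with centring on the added transcripts). The neuronal ELAV proteins Elavl4, Elavl2 and Elavl3 fell with log2 fold changes of -7.52, -7.22 and -3.85, and Elavl2 was the only one of them called between the cultures, at -4.89 against cultured cells. Their ubiquitous relative Elavl1 rose by 0.76, with 3 of its 6 probe sets upward and 1 downward. Rbfox3, the neuronal nuclear antigen NeuN, fell with -5.89, and Esrp1, an epithelial splicing factor, with -3.96. Ptbp1, which represses neuronal exons in non-neuronal cells, was at 9.24, 9.39 and 9.68 on the tissue arrays and at 11.08, 11.11 and 10.99 on the neurosphere arrays (log2 fold change 1.62, SE 0.12, adjusted p = 4.04e-06), without overlap. Its relative Ptbp3 rose by 1.28, and Mbnl3, a muscleblind splicing regulator, by 1.87.

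Cochlear genes also fell. Of 36 deafness genes of hair cells, tectorial membrane and supporting cells 23 fell and 2 rose, with a median of -1.12. Smpx, Tmprss3 and Lhfpl5, needed by hair cells, fell with log2 fold changes of -6.26, -5.31 and -3.97, and Tectb, a tectorial membrane protein, with -3.36. Coch, a secreted protein of the fibrocytes around the cochlea, was at 13.87, 13.90 and 13.89 on the tissue arrays and at 10.60, 9.87 and 9.33 on the neurosphere arrays, without overlap, a log2 fold change of -3.96. Pou3f4, a transcription factor of otic mesenchyme, rose by 1.32, and Triobp, an actin bundler, by 0.98.

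Genes of ion and water balance changed in both directions. Connexins Gjb6 and Gjb2, which form the gap junctions of cochlear supporting cells and fibrocytes, fell with log2 fold changes of -7.27 and -4.47, Gjd2 of neurons with -5.31 and Gjb1 of Schwann cells with -3.03. Gjc1, a connexin of mesenchyme and vessel walls, was the 1 member of 14 that rose, while 6 fell, and it was at 7.89, 7.64 and 7.79 on the tissue arrays and at 9.86, 9.81 and 9.92 on the neurosphere arrays. Of 31 sodium pump subunits, aquaporins and carbonic anhydrases, 14 fell and 3 rose, and the medians of both lists changed sign with centring on the added transcripts, from -0.01 to 0.67 for the connexins and from -0.14 to 0.54 for the pumps. Among the aquaporins, members moved apart. Aqp4, the glial water channel, was at 10.48, 11.09 and 10.93 on the tissue arrays and at 3.19, 3.13 and 3.02 on the neurosphere arrays, a log2 fold change of -7.72, and Aqp1, a water channel of fibrocytes and vessels, was at 6.23, 6.38 and 6.57 on the tissue arrays and at 11.11, 10.38 and 10.39 on the neurosphere arrays, a rise of 4.23. Car3 and Car14 fell with -7.08 and -5.06, and Car8, a carbonic anhydrase relative without enzyme activity, rose by 3.96. Aqp1 and Car8 were also higher than in cultured cells, by 2.12 and 1.15, whereas Car3 was lower (-4.86).

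The machinery of protein production rose together. Of 40 measured ribosomal proteins of the cytosol 26 rose and none fell, and 29 of the 69 listed were not analysed here. Of 39 ribosome biogenesis factors 25 rose and none fell, and of 22 aminoacyl-tRNA synthetases and their partners 12 rose and 1 fell. The medians of the 3 lists were 0.66, 0.67 and 0.67. Rplp0, a stalk protein of the large subunit, was at 12.04, 12.26 and 12.44 on the tissue arrays and at 13.68, 13.61 and 13.59 on the neurosphere arrays (log2 fold change 1.38, SE 0.11, adjusted p = 7.41e-06). Ncl, the main protein of the nucleolus, was at 9.45, 10.15 and 10.28 on the tissue arrays and at 11.83, 11.83 and 11.97 on the neurosphere arrays, a rise of 1.91, and Nop58, a core protein of snoRNA particles, rose by 2.12. Qars and Cars, which charge glutamine and cysteine tRNAs, rose by 1.92 and 1.88, and Wars, which charges tryptophan tRNA, fell with -0.75, with 1 of its 4 probe sets upward and 2 downward, and the value was 0.045 when probe sets marked as shared were left out. Between neurospheres and cultured cells few of these genes differed, with 1, 0 and 0 members of the 3 lists higher in neurospheres and 0, 2 and 1 lower.

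Proteasome genes rose in the same way, 19 of 40 with none falling and a median of 0.55. The largest rise was that of Psmb8, a subunit of the immunoproteasome, at 6.59, 6.52 and 6.74 on the tissue arrays and at 9.26, 9.91 and 9.38 on the neurosphere arrays (log2 fold change 2.90, SE 0.17, adjusted p = 7.24e-07), followed by Psmd8 and Psmd10 of the regulatory particle with 2.10 and 2.01. Psmd13 rose by 1.99 at its brightest probe set, with 3 of 4 probe sets upward and 1 downward. Tissue array 1, which had the largest actin and Gapdh differences, was the lowest tissue array for 37.9% of all genes. The share was 47.5% among all genes that rose, 42.2% among those that fell and 32.7% among those that did not pass. This array was the lowest for 29 of the 40 proteasome genes and 24 of the 40 ribosomal proteins, or 72.5% and 60%. It was the lowest for 14 of the 22 synthetases and 18 of the 39 biogenesis factors, or 63.6% and 46.2%. Without that array 17 proteasome genes, 23 ribosomal proteins, 24 biogenesis factors and 11 synthetases rose. The part of RNA integrity in these rises was not tested.

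In the secretory pathway the largest rises were those of a disulfide isomerase and of enzymes that modify collagen. Of 43 endoplasmic reticulum and coat genes, 24 rose and 1 fell, with a median of 0.82. Pdia5, a disulfide isomerase, was at 6.46, 6.45 and 6.86 on the tissue arrays and at 10.40, 10.22 and 10.35 on the neurosphere arrays (log2 fold change 3.73, SE 0.13, adjusted p = 2.89e-08). Plod2 and Plod3, which hydroxylate collagen lysines, rose by 2.97 and 2.90, and Sec24d, a cargo adaptor of the coat that exports procollagen, by 2.04. The chaperones best known from the unfolded protein response did not pass. Hspa5, the chaperone BiP, was at 12.86, 13.01 and 12.72 on the tissue arrays and at 13.06, 13.07 and 13.08 on the neurosphere arrays, so the groups did not overlap but differed by only 0.21 (adjusted p = 0.0914, limma), and Calr and Canx differed by 0.10 and 0.11.

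The members were also compared by a promoter sequence. The endoplasmic reticulum stress element, CCAAT and CCACG with any 9 bases between them, was searched on both strands in the 250 bases before each RefSeq start (GRCm38.p6, 32851 windows), and 0.113% of windows held it. It lay before 8 of the 36 list members with a window. Of those 8 genes Pdia6 rose, Ero1b fell and the other 6 did not pass, and the median log2 fold change of the 8 was 0.16. Among the 6, Hsp90b1 and Creld2 were higher in neurospheres by 0.40 and 0.46 (limma adjusted p = 0.00629 and 0.00493), under the fold threshold. Of the 28 members without the sequence 18 rose and none fell, with a median of 1.03. This is a count of letters and not a test, and whether the sequence is used in these cells was not tested. The window of Hspa5 is shown with the element in capitals, as RefSeq gives it for the reference strain.

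Hspa5 (chr2:34771840-34772089, plus strand): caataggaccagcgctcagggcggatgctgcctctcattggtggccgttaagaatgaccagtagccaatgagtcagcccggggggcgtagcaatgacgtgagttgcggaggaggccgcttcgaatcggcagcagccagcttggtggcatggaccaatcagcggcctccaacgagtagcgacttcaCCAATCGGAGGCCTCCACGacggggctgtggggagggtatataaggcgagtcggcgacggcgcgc

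Of 35 chaperones outside the endoplasmic reticulum 15 fell and 5 rose, with a median of -0.27, but with centring on the added transcripts 5 fell and 15 rose and the median was 0.42. Without probe sets marked as shared 11 fell and 7 rose, with a median of 0.12. Dnajc6, the neuronal auxilin that uncoats vesicles, fell with a log2 fold change of -5.56, Hspa4l with -3.27 and Dnajb2, a co-chaperone of neurons, with -1.57. Among the members that rose were Cct8, Tcp1 and Cct5, subunits of the ring that folds actin and tubulin, by 1.01, 0.80 and 0.63. Hspa4 rose by 1.46 with 2 of its 4 probe sets upward and 1 downward.

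Energy metabolism changed by less. Of 68 subunits of oxidative phosphorylation 25 fell and 1 rose, with a median of -0.45 that became 0.24 with centring on the added transcripts, where 11 rose and 1 fell, and -0.29 without probe sets marked as shared. Complex I held 15 of the falls among 30 subunits and complex IV 6 of 11, against 2 of 15 in the ATP synthase and none of 4 in complex II. Tissue array 1 was the lowest tissue array for 40 of the 68 subunits, or 58.8%, and the part of RNA integrity was not tested. Cox7a1, the subunit form of heart and muscle, was at 7.55, 7.85 and 7.61 on the tissue arrays and at 5.24, 4.78 and 4.61 on the neurosphere arrays (log2 fold change -2.79, SE 0.16, adjusted p = 8.54e-07), and Ndufa5 and Ndufs7 of complex I fell with -1.38 and -1.36. Atp5g2, which encodes a ring subunit of the ATP synthase, rose by 0.61. Ppargc1a, the coactivator that drives mitochondrial gene expression, fell with a log2 fold change of -5.11, and all 5 of its probe sets passed downward. It was at 10.81, 10.84 and 11.01 on the tissue arrays and at 6.55, 5.24 and 5.55 on the neurosphere arrays. It was higher in neurospheres than in cultured cells, by 1.04.

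Lipid handling changed member by member. Of 40 genes of fatty acid oxidation and the peroxisome 11 rose and 8 fell, near the shares over all genes. Among the enzymes that activate fatty acids, Acsl6, the form of brain and nerve, fell with a log2 fold change of -5.99, whereas Acsl4, which prefers arachidonic acid, rose by 2.17. Abcd2, a peroxisomal importer, fell with -2.12, and Cpt1c, a carnitine palmitoyltransferase of the endoplasmic reticulum, rose by 1.57.

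Genes that supply nucleotides rose, 15 of 33 with 3 falling and a median of 0.33. Rrm2, the ribonucleotide reductase subunit made in S phase, was at 6.49, 5.84 and 5.92 on the tissue arrays and at 10.66, 9.92 and 10.24 on the neurosphere arrays (log2 fold change 4.19, SE 0.22, adjusted p = 4.22e-07), and Tk1, thymidine kinase, rose by 3.65. Both were lower in neurospheres than in cultured cells, with -1.56 and -1.51, and 10 of the 33 were. Phgdh, the first enzyme of serine synthesis, fell with -1.44, as did Rrm2b, the reductase subunit of resting cells, with -0.92. In the list of amino acid transport and the ATF4 stress response 9 of 29 fell and 5 rose, with a median of -0.17 that became 0.52, with 11 rising and 5 falling, with centring on the added transcripts and 0.054 with the mean of each gene's probe sets. Transporters led the falls, Slc38a1 for glutamine with -2.66 and Slc43a2 for branched and aromatic amino acids with -1.77, and regulators led the rises, Cebpb with 3.19, Eif4ebp1 with 2.60 and Atf5 with 1.77.

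Antioxidant genes rose more often than they fell, 18 of 38 against 6, with a median of 0.52, and tissue array 1 was the lowest tissue array for 23 of the 38. The part of RNA integrity was not tested. Gpx7, a peroxidase of the endoplasmic reticulum, was at 7.35, 7.38 and 7.39 on the tissue arrays and at 11.37, 11.11 and 11.05 on the neurosphere arrays (log2 fold change 3.80, SE 0.10, adjusted p = 8.8e-09), and Gsto1 and Sod3, an intracellular transferase and the secreted superoxide dismutase, rose by 3.14 and 2.76. Gpx3, the secreted glutathione peroxidase, Mt3, the metallothionein of neurons and glia, and Mgst3 fell with -4.11, -3.87 and -2.79. Sod3 distinguished the cultures too, at 2.88 in neurospheres over cultured cells.

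Lysosomal genes showed 17 rises and 6 falls among 46, with a median of 0.31 (0.49 with the mean of each gene's probe sets), and tissue array 1 was the lowest tissue array for 26 of them. Ctsk and Ctsl, cathepsins that digest matrix, rose by 2.82 and 2.33, and Gusb, which digests glycosaminoglycans, by 2.24. Ctss, the cathepsin of macrophages and other antigen-presenting cells, was at 11.22, 11.34 and 11.46 on the tissue arrays and at 7.93, 6.90 and 6.82 on the neurosphere arrays, a log2 fold change of -4.12. Macrophage markers fell beside it. Of the 46 genes, 13 were higher and none lower in neurospheres than in cultured cells.

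Complement genes parted along the classical pathway. The 3 chains of C1q, which macrophages make, fell: C1qb was at 9.28, 9.93 and 10.01 on the tissue arrays and at 6.28, 5.15 and 5.36 on the neurosphere arrays (log2 fold change -4.14, SE 0.30, adjusted p = 3.31e-06), and C1qa and C1qc fell with -3.60 and -3.55. The proteases that C1q activates rose, C1s1 at 5.69, 6.24 and 6.29 on the tissue arrays and at 10.90, 10.65 and 10.71 on the neurosphere arrays (log2 fold change 4.68, SE 0.16, adjusted p = 3.51e-08) and C1ra by 3.5. No array of either group overlapped the other for these 5 genes, as was the case for 68.1% of all genes. Masp1, a protease of the lectin pathway, rose by 4.10, with 4 of its 5 probe sets upward and 1 downward, and Cfb and the C1 inhibitor Serping1 rose by 2.36 and 1.27. In all 6 of 20 rose and 8 fell, and the median, -0.04, became 0.65 with centring on the added transcripts.

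Antigen presentation parted by class. Of 19 genes, 13 rose and 3 fell, with a median of 1.28, and the 3 were the class II chains. H2-Aa was at 7.89, 7.60 and 7.85 on the tissue arrays and at 5.38, 5.50 and 5.66 on the neurosphere arrays (log2 fold change -2.27, SE 0.11, adjusted p = 3.27e-07), and H2-Ab1 and H2-Eb1 fell with -1.71 and -1.27. In the class I pathway B2m, the invariant light chain, was at 12.00, 11.94 and 12.20 on the tissue arrays and at 13.25, 13.45 and 13.27 on the neurosphere arrays, a rise of 1.28, H2-K1, a heavy chain, rose by 1.12 and Tap1, which pumps peptides into the endoplasmic reticulum, by 2.18. The related molecules Cd1d1 and Mr1, which present lipids and vitamin metabolites, rose by 2.75 and 2.72. Class II needs the activator Ciita and the invariant chain Cd74, and these differed by 0.12 and -0.16 and did not pass. CBA/CaJ mice carry their own H2 haplotype, and how far probes for the reference sequence bind it is not known here.

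Of 37 Toll-like receptor and NF-kappaB pathway genes 20 rose and 3 fell, with a median of 0.77. The 3 that fell were all Toll-like receptors, which sense microbial molecules, namely Tlr1, Tlr5 and Tlr3, with log2 fold changes of -1.20, -1.14 and -0.73. The value of Tlr3 became a difference of 0.35 that did not pass when probe sets marked as shared between transcripts were left out. Tnfaip2, a target of tumour necrosis factor, was at 5.62, 5.29 and 5.88 on the tissue arrays and at 10.90, 10.98 and 10.82 on the neurosphere arrays (log2 fold change 5.30, SE 0.14, adjusted p = 9.07e-09). Irak3, which restrains Toll-like receptor signalling, rose by 3.90, Relb and Nfkb2, the pair of the noncanonical pathway, by 3.49 and 2.27, Nfkbie, an inhibitor of NF-kappaB, by 3.19 and Cd14, a coreceptor for endotoxin, by 3.30. Many members were also higher than in cultured cells. Against cultured cells 16 of 37 were higher and 2 lower in neurospheres, with Tnfaip2 higher by 2.22 and Cd14 by 2.16.

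**Figure D3:**
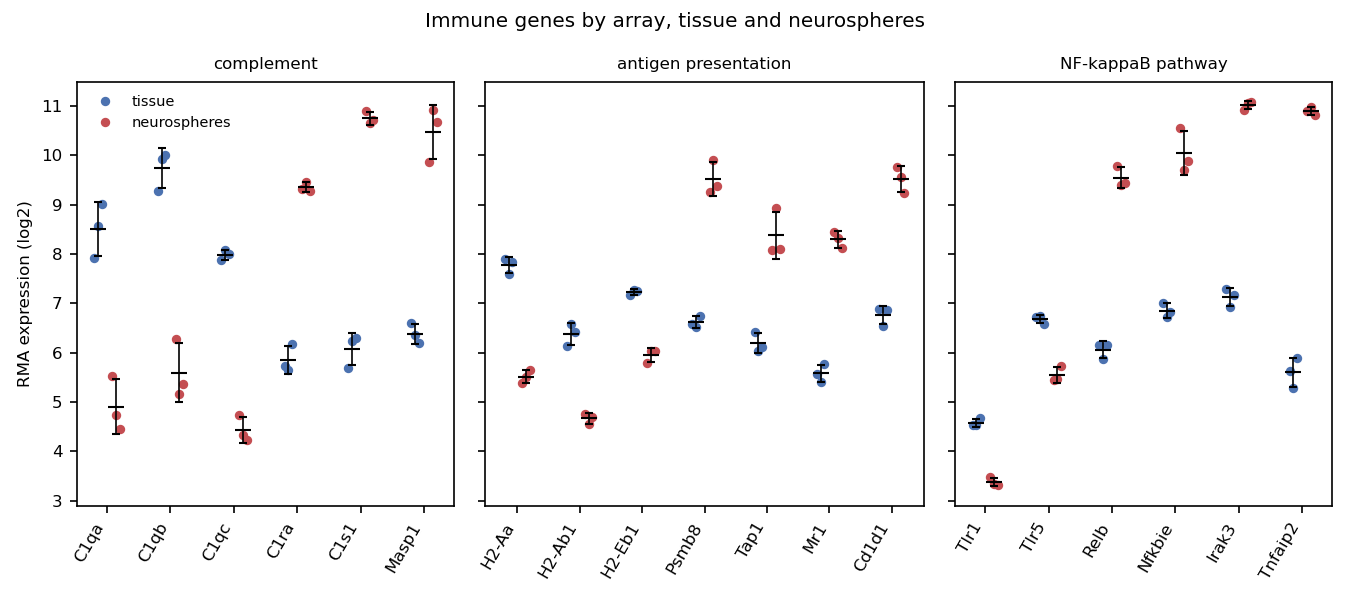
RMA expression (y axis, log2) of immune genes on the 3 tissue and 3 neurosphere arrays, 1 point per array with bars for the mean ± SD. C1q chains, class II chains, Tlr1 and Tlr5 lie higher in tissue. C1ra, C1s1, Masp1, Psmb8, Tap1, Mr1, Cd1d1, Relb, Nfkbie, Irak3 and Tnfaip2 lie higher in neurospheres. Levels of different genes are not comparable with each other.

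The NF-kappaB consensus site, named here by its factor because its letters are degenerate, was looked for in the same promoter windows on both strands. It was found in 7.25% of all windows, in 10.6% of those of genes that rose, 9.36% of those of genes that fell and 7.44% of those of genes that did not pass. Of 15 windows of the antigen presentation list 5 held it, and of 41 windows of the NF-kappaB pathway list 13 did, or 33.3% and 31.7%. For members that rose it was in 4 of 11 and 7 of 19 windows, or 36.4% and 36.8%, near the shares of all members. The AP-1 site TGANTCA was in 6.75% of all windows, 5.23% of those of genes that rose, 4.61% of those of genes that fell and 6.18% of those of genes that did not pass. For the core of the interferon-stimulated element, TTTC and TTTC with any 2 bases between them, the shares in the same order were 2.98%, 3.13%, 2.43% and 2.48%, and 1 of the 15 antigen presentation windows held it. Windows of 4 genes that rose are shown, 2 from each list, with the match in capitals. In H2-K1 and Nfkb2 matches that overlap by 9 of 10 bases run together.

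Nfkb2 (chr19:46304487-46304736, plus strand): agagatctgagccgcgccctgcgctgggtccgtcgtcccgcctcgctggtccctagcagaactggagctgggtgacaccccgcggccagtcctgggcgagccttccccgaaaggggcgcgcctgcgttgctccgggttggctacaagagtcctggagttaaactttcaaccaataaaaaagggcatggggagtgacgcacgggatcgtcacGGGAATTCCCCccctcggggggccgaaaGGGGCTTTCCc
Nfkbie (chr17:45555450-45555699, plus strand): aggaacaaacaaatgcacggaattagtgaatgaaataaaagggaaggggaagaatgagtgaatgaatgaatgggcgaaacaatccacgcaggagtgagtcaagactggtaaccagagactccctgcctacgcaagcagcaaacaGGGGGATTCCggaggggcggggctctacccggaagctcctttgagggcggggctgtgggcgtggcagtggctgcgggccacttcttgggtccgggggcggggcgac
B2m (chr2:122147437-122147686, plus strand): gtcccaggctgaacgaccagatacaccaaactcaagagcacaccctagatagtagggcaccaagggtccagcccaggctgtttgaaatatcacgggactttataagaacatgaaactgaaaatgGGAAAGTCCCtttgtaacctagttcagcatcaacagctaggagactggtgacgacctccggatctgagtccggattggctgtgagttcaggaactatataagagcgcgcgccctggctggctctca
H2-K1 (chr17:34000348-34000597, minus strand): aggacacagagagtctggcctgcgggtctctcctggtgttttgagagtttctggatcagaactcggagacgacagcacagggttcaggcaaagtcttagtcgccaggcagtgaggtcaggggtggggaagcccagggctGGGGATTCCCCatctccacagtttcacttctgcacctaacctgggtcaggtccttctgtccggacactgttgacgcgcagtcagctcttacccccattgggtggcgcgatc

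Whether any of these matches is bound in neurospheres was not measured, and a match describes the reference sequence only.

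Genes of TGF-beta family signalling rose more often than they fell, with 19 of 33 higher, 5 lower and a median of 0.94. Signalling itself was not measured. Inhbb, an activin subunit, was at 5.63, 5.44 and 5.92 on the tissue arrays and at 10.17, 11.12 and 10.69 on the neurosphere arrays (log2 fold change 5.00, SE 0.23, adjusted p = 1.68e-07), and the other activin subunit, Inhba, rose by 4.48. Ltbp2, a matrix protein related to those that store TGF-beta, rose by 4.78, and the TGF-beta response genes Tgfbi and Tgif1 by 3.86 and 3.99. Gdf10 fell with -3.92, Tgfb2 with -2.20 and Inha, whose product opposes activin, with -1.52. The steps differed between members. Inhbb was higher in neurospheres than in cultured cells by 2.69, and Gdf10 differed from cultured cells by -3.90, close to its difference from tissue.

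Genes of adhesion and the cytoskeleton differed from both other groups. Of 43 focal adhesion and actin genes 21 rose and 5 fell against tissue, with a median of 0.58, and against cultured cells 2 were higher and 19 lower. Of the 21 that rose from tissue, 8 were lower than in cultured cells, and so were all 5 that fell from tissue. Tissue array 1 was the lowest tissue array for 26 of the 43. Tpm1, a tropomyosin, was at 9.15, 9.33 and 9.44 on the tissue arrays and at 11.58, 11.44 and 11.52 on the neurosphere arrays, a rise of 2.21, and against cultured cells it was at -1.28. Anxa1, an annexin, rose by 3.52 and did not differ from cultured cells past the threshold (-0.15). Myl9, the myosin light chain of contractile cells, fell with -1.47, and its difference from cultured cells was -4.65. Tpm4 and Cnn2 rose by 2.50 and 2.29.

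The YAP and TAZ list had 11 of 27 genes rising and 3 falling against tissue and 3 higher and 11 lower against cultured cells. Axl, a receptor kinase and YAP target, rose by 3.65, Wwtr1, which encodes TAZ, by 2.59, Tead2, its DNA-binding partner, by 2.54 and the secreted target Ccn2 by 1.92. Amotl2, a target that feeds back on YAP, was at 10.00, 9.73 and 10.02 on the tissue arrays and at 9.12, 8.63 and 8.65 on the neurosphere arrays, a log2 fold change of -1.12, and its difference from cultured cells was -3.68. Dlc1 fell with -1.71, with 1 of 4 probe sets upward and 2 downward.

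Guidance molecules split by family member. Of 55 ephrins, semaphorins, netrins, slits and receptors 20 fell and 15 rose, with a median of -0.26 that became 0.43 with centring on the added transcripts and 0.066 with the mean of each gene's probe sets. Sema3e, a secreted repellent, was at 11.73, 11.56 and 11.57 on the tissue arrays and at 6.59, 6.58 and 6.76 on the neurosphere arrays (log2 fold change -4.98, SE 0.10, adjusted p = 1.89e-09), and Epha5, Unc5d and Ntn4 fell with -4.09, -4.04 and -3.59. Efna4, an ephrin ligand, rose by 2.48, Epha3, its receptor family member, by 2.00, and Slit2, a secreted repellent, by 1.74.

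Genes of growth arrest rose more often than they fell. Of 31 p53 targets and senescence genes 19 rose and 3 fell, with a median of 0.90. Cdkn2b, which encodes the cell cycle inhibitor p15, was at 5.52, 4.99 and 5.39 on the tissue arrays and at 10.39, 10.81 and 10.62 on the neurosphere arrays (log2 fold change 5.31, SE 0.16, adjusted p = 1.45e-08), and it was higher than in cultured cells by 2.26. Cdkn2a of the same locus rose by 1.54 to no more than 5.78 on any array, and Cdkn1a, the p53 target that encodes p21, was high in both groups and differed by 0.42, under the fold threshold. Eda2r, a death receptor and p53 target, rose by 5.05, and Pmaip1, which encodes the killer protein NOXA, was at 4.57, 4.29 and 4.01 on the tissue arrays and at 7.85, 9.10 and 9.38 on the neurosphere arrays, a rise of 4.49. Gadd45a rose by 2.90, and its difference from cultured cells was 2.94.

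Among BCL2 proteins and caspases 10 of 27 rose and 3 fell, with a median of 0.49. Casp4, the inflammatory caspase that senses endotoxin inside cells, was at 5.33, 5.52 and 5.56 on the tissue arrays and at 9.59, 10.17 and 10.12 on the neurosphere arrays (log2 fold change 4.49, SE 0.16, adjusted p = 3.54e-08), and Casp6, Casp12 and Apaf1, the scaffold of the apoptosome, rose by 2.05, 1.98 and 1.93. Bcl2, the founding survival protein, fell with -2.16, and Birc3, an inhibitor of apoptosis induced by NF-kappaB, rose by 2.00.

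**Figure D4:**
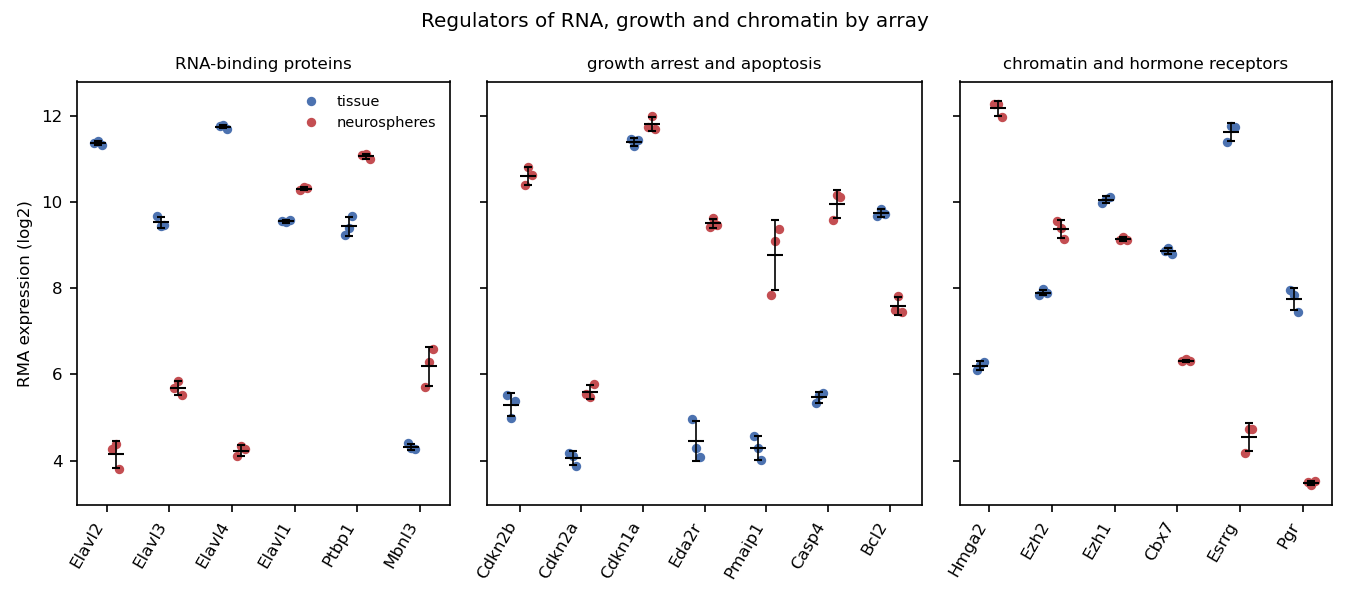
RMA expression (y axis, log2) of RNA-binding proteins, genes of growth arrest and apoptosis, and chromatin proteins with hormone receptors on the 3 tissue and 3 neurosphere arrays, 1 point per array with bars for the mean ± SD. Elavl2 to Elavl4 fall from above 9 to below 6 while Hmga2 rises from about 6 to about 12. Levels of different genes are not comparable with each other.

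Of 28 Polycomb and high mobility group genes 6 rose and 5 fell, near the shares over all genes. Hmga2, a chromatin protein of embryonic and proliferating cells, was at 6.09, 6.21 and 6.30 on the tissue arrays and at 12.27, 12.28 and 11.97 on the neurosphere arrays (log2 fold change 5.97, SE 0.11, adjusted p = 1.88e-09), and it was higher than in cultured cells by 1.60. Ezh2, the Polycomb methyltransferase of dividing cells, rose by 1.47 and Ezh1, its counterpart in resting cells, fell with -0.92, and between neurospheres and cultured cells both went the other way, with -1.09 and 0.79. Cbx7, a Polycomb reader, fell with -2.55.

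Of 18 SOX factors 9 fell and 2 rose, with a median of -0.59 that became 0.10 with centring on the added transcripts. Beyond the glial Sox10 and Sox2, Sox17 and Sox18 of endothelium fell with -5.33 and -2.23 and Sox6 with -2.36. Sox4, a factor of progenitors, was at 11.03, 11.01 and 11.06 on the tissue arrays and at 12.60, 12.69 and 12.59 on the neurosphere arrays, a rise of 1.59, and Sox5 rose by 1.09 and was higher than in cultured cells by 1.85.

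Nuclear receptors were as mixed as all genes, with 9 of 34 rising and 8 falling. Esrrg, an orphan receptor of cells with high energy use, was at 11.39, 11.77 and 11.73 on the tissue arrays and at 4.17, 4.73 and 4.73 on the neurosphere arrays (log2 fold change -7.09, SE 0.17, adjusted p = 5.15e-09). Pgr, the progesterone receptor, and Nr3c2, the mineralocorticoid receptor, fell with -4.27 and -3.69. Vdr and Rarb, receptors for vitamin D and retinoic acid, rose by 2.14 and 2.10. Esr1, the oestrogen receptor, fell with -1.28 from tissue and was lower than in cultured cells by a larger step (-3.58).

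Among imprinted genes 13 of 32 fell and 5 rose, with a median of -0.33 that became 0.36 with centring on the added transcripts. Nap1l5, which is expressed in neurons, was at 13.01, 13.04 and 12.91 on the tissue arrays and at 7.40, 7.92 and 8.09 on the neurosphere arrays (log2 fold change -5.18, SE 0.17, adjusted p = 2.18e-08), and Peg3, Nnat and the noncoding Mirg fell with -2.46, -2.42 and -2.36. Grb10, an adaptor that restrains insulin signalling, rose by 2.16 and Igf2r, which clears the growth factor IGF2, by 1.51. Against cultured cells 11 were lower and 2 higher in neurospheres.

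Of 23 circadian clock genes 6 rose and 4 fell, near the shares over all genes. Their median of -0.11 became 0.58 with centring on the added transcripts and 0.030 with the mean of each gene's probe sets. Npas2, the neuronal partner of the clock, was at 8.54, 8.29 and 8.47 on the tissue arrays and at 4.27, 4.44 and 4.10 on the neurosphere arrays (log2 fold change -4.16, SE 0.11, adjusted p = 9.56e-09). Nr1d1, a repressor of the clock, was at 6.64, 6.68 and 6.91 on the tissue arrays and at 8.74, 8.81 and 7.73 on the neurosphere arrays, a rise of 1.68 with the third neurosphere array below the other two, and Nfil3 and Timeless rose by 1.82 and 2.32. Rorb fell with -2.04. The hour of sampling is not given in the sources used here.

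Beyond the lists, the rises ranked 11 to 20 among all genes included several secreted and surface proteins. Timp1, an inhibitor of metalloproteinases, was at 7.32, 7.26 and 7.14 on the tissue arrays and at 13.76, 13.47 and 13.56 on the neurosphere arrays (log2 fold change 6.36, SE 0.10, adjusted p = 9.59e-10). Sdc1, a heparan sulphate proteoglycan, rose by 6.30, Tnc, a matrix glycoprotein of developing and injured tissue, by 6.01, Lcn2, an iron-binding acute phase protein, by 5.86 and Ptgs2, the inducible prostaglandin synthase, by 5.78. The cytokines Lif and Il11, which share a receptor subunit, rose by 6.09 and 5.67. Il11 was at 5.04, 4.71 and 4.85 on the tissue arrays and at 12.37, 9.40 and 9.83 on the neurosphere arrays, so its neurosphere arrays spread far more than its tissue arrays, and the first one was the highest for Il11, Lif and the protease Mmp12 alike. Lif, Il11 and Mmp12 were higher than in cultured cells by 4.47, 5.55 and 4.61. Psrc1, a spindle protein, rose by 6.17 and did not differ between the cultures past the threshold (0.13).

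The falls ranked 11 to 20 included several genes of neurons. The calcium-binding proteins Calb2 and Pvalb of auditory neurons fell with log2 fold changes of -7.75 and -7.67, the light neurofilament Nefl with -7.73, Gdap1, a mitochondrial protein mutated in hereditary neuropathy, with -7.74 and Slc24a2, a sodium and calcium exchanger, with -7.66. Slc47a1, an exporter of organic cations, was at 11.88, 12.00 and 11.66 on the tissue arrays and at 4.16, 3.88 and 4.06 on the neurosphere arrays (log2 fold change -7.81, SE 0.12, adjusted p = 7.04e-10), and Aldh1a1, which makes retinoic acid, was at 11.51, 11.38 and 11.44 on the tissue arrays and at 3.5, 3.60 and 3.80 on the neurosphere arrays (log2 fold change -7.81, SE 0.10, adjusted p = 4.77e-10). Aldh1a1 was still lower in neurospheres than in cultured cells (-4.94), whereas Calb2 and Pvalb did not differ between the cultures past the threshold. Tlcd3b fell with -7.72 at its brightest probe set, and the difference was 0.10 when probe sets marked as shared were left out.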

How the data were processed

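Gene expression was measured on 1-colour arrays, 3 each of auditory nerve tissue, cultured cells and neurospheres. The deposited values were log2 signals, for which the authors used RMA with Affymetrix Expression Console (the labels name MAS5 too), and software versions are not given in the sources used here. RMA gives all arrays the same distribution before probes are summarised, so a change shared by all genes is removed. Of 45101 probe sets, 64 were controls, 34945 named 1 gene, 932 named several and 9160 named none, and 162 symbols were kept as given because the reference table did not hold them. Each gene was read from its single-gene probe set with the highest mean over all 9 arrays, and 9010 genes had more than 1.

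Groups followed the sample titles. Neurospheres were compared with tissue, and with cultured cells, by moderated statistics in limma (version 3.58.1, R 4.3.3, 2-sided), adjusted by the Benjamini-Hochberg method over all genes, and a gene rose or fell where the adjusted p was below 0.05 and the change above 1.5-fold. The methods of the study named a t-test, which was run as an alternative because 3 arrays give a poor estimate of a gene's spread. Their number limits the precision. Tables were made in Python 3.11.15 with pandas 2.3.3 and numpy 2.4.6, and the fit was tested on simulated data.

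Members and lists were chosen with earlier results of these data known. Of 1297 list memberships 130 were not analysed here, and the rest covered 1159 genes. Named were the largest rise and fall of each list, up to 4 further members with the largest changes, members that went against their list, the marker genes and, of all genes, ranks 11 to 20 in each direction among those whose arrays did not overlap, predicted genes apart. Hspa5, Calr, Canx, Pdia6, Ero1b, Hsp90b1, Creld2, B2m, H2-K1, Ciita, Cd74, Nfkb2, Cdkn2a, Cdkn1a and the genes whose promoters are printed were chosen after their values were seen. Alternatives changed the scaling, the probe set, the filter, the arrays in the fit, the test, the threshold, a replicate block and the omission of each array. Promoter windows were taken from RefSeq (GRCm38.p6) without chromosome 18, and the probes' positions along transcripts were not analysed here.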

Additional observations from a re-analysis of the deposited data

Results flagged for a closer look

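Probe sets that name no gene carry signal that the gene comparison did not use. Of 9160 such probe sets, 2463 (26.9%) passed the same limma test and fold threshold between neurospheres and tissue, 803 upward and 1660 downward, and the median absolute log2 fold change over all of them was 0.25.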

How the results depend on the processing

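Against tissue, 3945 genes rose and 3817 fell. Centring on the added poly-A transcripts, an alternative chosen after seeing the data, gave 9663 and 1932, centring on highly expressed genes 3485 and 4186, on hybridisation controls 4556 and 3436, and quantile normalisation 4402 and 3599. The median log2 fold change of all genes was 0.05, and 0.73, -0.05, 0.15 and 0.12 under these 4. Every probe set on its own gave 8488 rising and 6580 falling. Leaving out the lowest 40% of genes gave 2540 falling, no fold threshold 6013 rising and a fold over 2 gave 2359 rising. Against cultured cells, where 1638 genes rose and 1621 fell, every probe set gave 2846 and 3281, no fold threshold 3488 and 2879, and a fold over 2 gave 752 and 866. With 1 array left out, 3869 to 4018 genes rose and 3778 to 3827 fell against tissue, and 1587 to 1683 rose and 1574 to 1686 fell against cultured cells. Arrays with the same replicate number did not deviate together (correlations of -0.09, -0.06 and -0.06 for tissue and neurospheres). Whether the numbers pair arrays is not stated, and these correlations cannot decide it because the spread may be technical. With the replicate block 3955 rose and 3822 fell against tissue and 1640 rose and 1613 fell against cultured cells. The methods' t-test gave 3876 rising and 3769 falling against tissue without adjustment and 3820 and 3710 after Benjamini-Hochberg adjustment. Some genes chosen by the naming rule changed direction. Without probe sets marked as shared, the log2 fold changes were -0.048 for Anxa2, 0.10 for Cryab, 0.063 for Gabarapl1, 1.41 for Jarid2, 0.20 for Lats2, -0.59 for Sgce, 0.020 for Sod1, -0.33 for Srsf3, 0.10 for Tlcd3b, 0.35 for Tlr3 and 0.045 for Wars. With centring on the added transcripts they were 0.045 for Cpt2, 0.053 for Esrra, 0.014 for Npc1, 0.076 for Sod1, 0.076 for Tef and 0.043 for Tln2, and with the mean of a gene's probe sets -0.019 for Gmps, 0.30 for Lats2, 0.017 for Nr2c2 and 0.059 for Ulk1. The cause was not tested. Of 70 list counts, 42 moved by over 1.5 times with centring on the added transcripts, 24 with a fold over 2 and 22 with no fold threshold. The lack of detection calls limits what can be said of weak signals.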
